A study of Mus musculus with 36 samples.

Results

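Eosinophils sorted from the colon of the mouse were compared with eosinophils sorted from 6 other tissues. The colon was represented by 3 libraries, labelled 1, 2 and 4, of the 24 libraries of total eosinophils from 7 tissues in a series of 36 samples, and the members were taken from the tissue label alone. The other 21 libraries came from bone marrow (3), blood (4), spleen (4), lung (3), skin (3) and small intestine (4). All groups were untreated wild-type C57BL/6 mice of 8 to 12 weeks, and both sexes were pooled, so no group carried a deletion or received an agent. The cells were profiled by full-length Smart-seq2. The values are TPM, a unit that corrects for transcript length and gives all libraries one common total over all genes. Over the deposited genes the totals ranged from 796048 TPM in skin 4 to 890768 TPM in skin 1. Whether replicates came from different animals is not stated, so the p-values speak only of variation among the libraries, part of which may be technical. Within these data the comparison asks which genes set colon eosinophils apart from those of each of the other 6 tissues in one direction.

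Eosinophils are granulocytes that form in the bone marrow under interleukin 5, circulate briefly in the blood and settle in many tissues, with the gastrointestinal tract as a large site of residence at steady state. In the gut they lie in the lamina propria beneath the epithelium, live longer than in blood and are exposed to microbial products, cytokines and hypoxia. Resident eosinophils transcribe few of the granule protein genes that their bone marrow precursors express, since the granule proteins are made and stored before the cells leave the marrow.

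Of 23 listed eosinophil identity genes, 1 (Epx) was listed at 0 in all 3 colon libraries, and Prg2 was among the lower genes, as given below. Siglecf, the sialic acid-binding lectin used to recognise mouse eosinophils, had 245, 296 and 347 TPM in colon 1, 2 and 4, against a lowest value of 105, a median of 219 and a highest of 347 TPM in the 21 other libraries. Ccr3, the eotaxin receptor, had 770.2, 762 and 667 TPM in the colon libraries, within the 274 to 1590.1 TPM of the other libraries. Il5ra, the interleukin 5 receptor subunit, had 57.9, 58.7 and 74.0 TPM in colon, also inside the range of the others. Epx, eosinophil peroxidase, was listed at 0 in the 3 colon libraries and between 0.3 and 1789.5 TPM elsewhere. A colon library had 8784 ± 76.9 genes at 1 TPM or more (SD, n = 3), against 7826 ± 53.2 in lung (SD, n = 3), where the mean was lowest, and 9297 ± 42.8 in bone marrow (SD, n = 3), where it was highest. Across the 9806 genes tested, colon libraries correlated with each other at a Spearman rho of 0.934 to 0.939, as a description across genes. They correlated with small intestine libraries at 0.876 to 0.899 and with bone marrow libraries at 0.746 to 0.764. TPM keep no sequencing depth, so the depth behind these values is unknown.

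Differences are given throughout as colon minus the other tissue on the log2(TPM + 1) scale, relative to the median gene of the same comparison, and understate the difference of low genes. The median gene itself differed by 0.0878 against the average of the 6 tissues, each weighted equally, and by 0.557 against lung, and became -0.0203 and 0.152 under median-ratio scaling. Since the median is taken off per tissue, the tissue with the smallest relative difference, named below as the nearest, need not be the one with the highest level. P-values come from limma, fitted over all 24 libraries and 9806 genes with Benjamini-Hochberg adjustment, and test the difference before the median is taken off. Against the mean of the 6 tissues, 1409 genes were higher in colon (14.4% of the genes tested) and 624 were lower (6.36%). These shares are the background of each list count against the mean below. The shares given here for a single tissue are the background of list counts against that tissue. The surplus of higher genes depended on the scaling: median-ratio scaling gave 1113 higher and 833 lower, and quantile normalization gave 1026 higher and 960 lower. Small intestine was the tissue with the fewest differences, with 696 genes higher (7.1%) and 552 lower (5.63%) in colon. Skin followed, with 915 higher (9.33%) and 873 lower (8.9%). Lung gave 3129 higher (31.9%) and 620 lower (6.32%), a split that median-ratio scaling changed to 1774 and 1338 and quantile normalization to 1263 and 1295. Blood gave 1948 higher (19.9%) and 1178 lower (12%), bone marrow 1872 (19.1%) and 1612 (16.4%), and spleen 1583 (16.1%) and 1390 (14.2%). In cell populations, fewer cells of a type and less RNA per cell cannot be told apart.

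**Figure D1:**
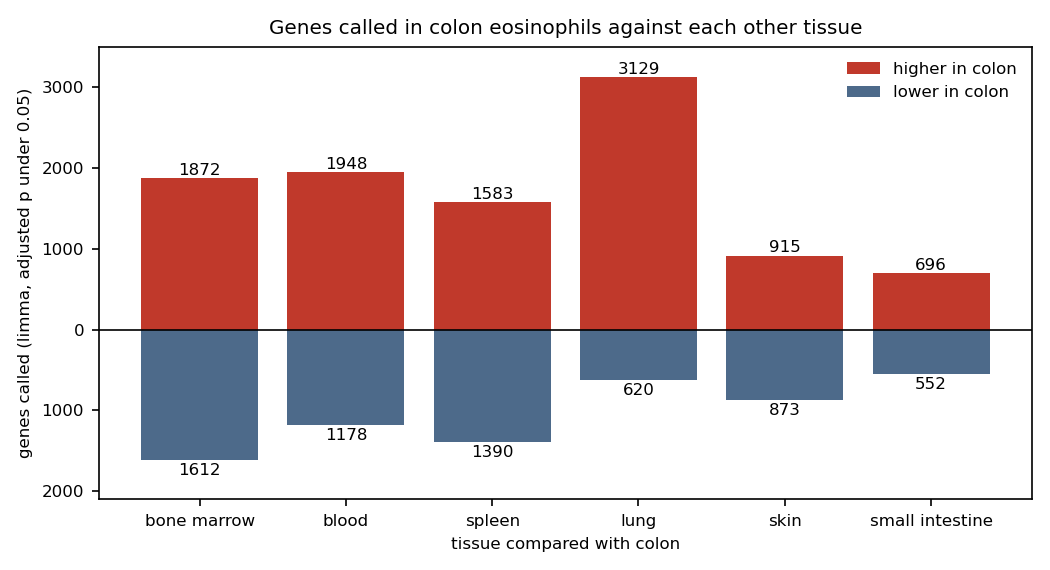
Number of genes called in colon eosinophils against each of the 6 other tissues (x axis), with genes higher in colon drawn upwards and genes lower in colon drawn downwards (y axis, number of genes with a limma adjusted p under 0.05). Small intestine has the fewest calls (696 higher, 552 lower) and lung the most higher calls (3129).

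A gene was called against every other tissue when its 6 differences had one sign and the largest of the 6 pairwise p-values passed adjustment over all genes. Colon eosinophils had 10 such genes on the higher side (0.102% of the genes tested) and 0 on the lower side (0%) by limma, where 90 genes (0.918%) were higher and 21 (0.214%) lower with an unadjusted p under 0.05 against each of the 6 tissues. The 10 genes were Mptx1, Clca1, Gpr65, Rgcc, Plk2, Cdkn1a, Serpinb2, Junb, Btg2 and Cyp4f18. In each of them the 3 colon libraries lay above all 21 other libraries, as was the case for 92 genes (0.938%), while 15 genes (0.153%) had the colon libraries below all others. A wider rule, an adjusted p under 0.05 against each of the 6 tissues taken alone, gave 53 higher genes (0.54%) and 7 lower genes (0.0714%). All 53 were also called higher against the mean of the 6 tissues, 45 of them had the colon libraries above all others, and 28 were in at least 1 of the gene lists used here. The calls against the mean, and the lack of overlap here and in the 10 genes, draw on the values that the rules used. They are no separate support. By level, before the median is taken off, the tissue nearest to colon among the 53 was small intestine for 20 genes, skin for 13, blood for 7, lung for 6, bone marrow for 4 and spleen for 3. The 10 calls were sensitive to single libraries: 2 remained without colon 1 (Clca1 and Mptx1), 1 without colon 2 (Mptx1), 2 without colon 4 (Mptx1 and Rgcc), 2 without lung 3 (Gpr65 and Mptx1) and 6 without small intestine 2. Mptx1 was called under each of the 36 alternative settings tried, but it passed the filter on low values through colon, as did Clca1: both are among 12 tested genes that would have failed the filter without the colon libraries, so the test on them starts from genes that had to differ. Of the 53 genes of the wider rule, 4 (these 2, Apol8 and Muc3) entered the test in this way. Median-ratio scaling kept Clca1, Gpr65, Mptx1 and Serpinb2. In build mm10, Btg2 lies at chr1:134075170-134079120, Mptx1 at chr1:174330518-174332873 and Serpinb2 at chr1:107511423-107535478. Clca1 lies at chr3:145003817-145032776, Gpr65 at chr12:98268635-98276644, Plk2 at chr13:110395046-110400844 and Rgcc at chr14:79288756-79301645. Cyp4f18 lies at chr8:71988482-72009626, Junb at chr8:84974484-84978718 and Cdkn1a at chr17:29090976-29100727, so the 10 genes stood on 7 chromosomes, and TPM count all exons of each.

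The promoters of the genes that separated colon from every other tissue are shown where AP-1, cyclic AMP response element or NF-kappaB letters were found, of 6 motifs searched, in the 250 bases before the start, since several of these genes are known targets of activation-induced factors. RefSeq windows (build GRCm38.p6) were on hand for 9 of the 10 genes in 11 windows, each read 5′ to 3′ on the strand of its gene, and both strands were searched. Capitals mark the match: the AP-1 site TGANTCA in Serpinb2 (chr1:107511173-107511422, plus strand, 94 bases before the start), the cyclic AMP response element TGACGTCA in Btg2 (chr1:134079156-134079405, minus strand, 166 bases) and in Plk2 (chr13:110394794-110395043, plus strand, 62 bases), and an NF-kappaB consensus in Rgcc (chr14:79301636-79301885, minus strand, 95 bases).
Serpinb2: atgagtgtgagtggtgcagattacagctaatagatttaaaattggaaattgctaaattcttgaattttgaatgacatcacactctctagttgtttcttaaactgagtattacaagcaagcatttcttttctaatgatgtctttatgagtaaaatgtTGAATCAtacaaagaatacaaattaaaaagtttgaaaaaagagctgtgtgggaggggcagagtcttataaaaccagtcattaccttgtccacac
Btg2: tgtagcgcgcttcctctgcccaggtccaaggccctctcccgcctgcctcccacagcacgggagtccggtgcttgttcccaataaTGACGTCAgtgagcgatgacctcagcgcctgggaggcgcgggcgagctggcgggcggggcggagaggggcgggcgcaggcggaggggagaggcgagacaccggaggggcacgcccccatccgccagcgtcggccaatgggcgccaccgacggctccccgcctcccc
Plk2: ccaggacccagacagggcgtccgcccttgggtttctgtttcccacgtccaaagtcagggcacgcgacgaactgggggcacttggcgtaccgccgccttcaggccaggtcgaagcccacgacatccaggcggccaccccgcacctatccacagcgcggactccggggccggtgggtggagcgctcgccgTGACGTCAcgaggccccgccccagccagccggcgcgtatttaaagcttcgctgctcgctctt
Rgcc: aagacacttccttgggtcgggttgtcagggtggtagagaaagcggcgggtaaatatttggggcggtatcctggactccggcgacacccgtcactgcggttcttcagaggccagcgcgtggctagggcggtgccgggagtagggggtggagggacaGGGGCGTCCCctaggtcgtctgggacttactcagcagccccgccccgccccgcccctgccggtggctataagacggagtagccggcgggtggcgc
The AP-1 letters stood in 18.2% of the 11 windows (2 overlapping windows of Serpinb2 that hold the same single site), against 4.4% of the 10140 windows of all genes tested. The cyclic AMP response element stood in 18.2% of the 11 windows, against 2.6% of all windows, and the NF-kappaB consensus in 9.1%, against 8.8%. Of the 3 other motifs searched, also on both strands, the CArG box was in 0 of the 11 windows (1.1% of all), the TATA box (TATAAA) in 36.4% (6.4% of all) and the dioxin response element core (GCGTG) in 45.5% (45.4% of all). The TATA box share also counts the 2 overlapping Serpinb2 windows, which hold the same single site. Positions within a window were not taken into account. In the 55 windows found for 44 of the 53 genes that passed against each tissue taken alone, AP-1 and the cyclic AMP response element stood in 7.3% each and the NF-kappaB consensus in 14.5%. No capitals of one window overlap another motif, and a match describes letters in a window and shows no binding.

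Of the 10 genes, 3 (Junb, Btg2 and Plk2) belong to the list of immediate early genes. Junb encodes a subunit of the AP-1 transcription factor. It had 3875, 4375 and 5386 TPM in colon 1, 2 and 4, against 85.1, 1021 and 2381 TPM as the lowest, median and highest of the other libraries, the last in small intestine 3. The colon libraries were all higher than any other, by 2.65 (SE 0.22) against the mean of the 6 tissues and by 1.08 against lung, the nearest tissue (limma adjusted p = 0.0242 against every tissue). Btg2, an antiproliferative gene that p53 induces, had 1316, 1651 and 1547 TPM in colon, against a median of 257 and a highest of 1048 TPM elsewhere, in small intestine 1. Its difference was 2.31 (SE 0.16) against the mean and 0.94 against lung, with an adjusted p of 0.0288 by limma against every tissue. Plk2, a stress-inducible polo-like kinase, had 124, 101 and 102 TPM in colon and 1.48, 20.6 and 48.4 TPM as the lowest, median and highest elsewhere. It was 2.52 (SE 0.19) higher than the mean and 0.85 higher than lung (limma adjusted p = 0.0222), without overlap between colon and any other tissue.

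Cdkn1a encodes p21, the inhibitor of cyclin-dependent kinases that p53 and other stress signals induce. Colon 1, 2 and 4 had 1612, 1849 and 2052 TPM, against 9.76, 38.4 and 725 TPM as the lowest, median and highest of the other libraries. Skin and lung came next, at 701 ± 24.02 and 632 ± 62.1 TPM (SD, n = 3 each), while small intestine had 167 ± 38.7 TPM (SD, n = 4). The difference was 4.19 (SE 0.19) against the mean and 0.98 against lung (limma adjusted p = 0.0225 against every tissue). Rgcc, a regulator of cell cycle progression first described as a response gene to complement, had 1177, 1349 and 963 TPM in colon, against 67.2, 305 and 566 TPM elsewhere as lowest, median and highest, with lung 1 the nearest library. It was 2.04 (SE 0.17) above the mean and 0.73 above lung (limma adjusted p = 0.0142). Gadd45a, a stress-inducible growth-arrest gene, lay just outside the threshold, with 317, 316 and 305 TPM in colon, a highest other value of 194 TPM and an adjusted p of 0.0501 by limma. Pmaip1, the proapoptotic Bcl-2 family member Noxa, had 779.8, 1053 and 865 TPM in colon and at most 540.4 TPM elsewhere, in skin 2 (adjusted p = 0.137 by limma against every tissue, and under 0.05 against each tissue taken alone). The proapoptotic Bcl2l11 was less particular to colon, with 71.3, 89.2 and 73.7 TPM there and up to 93.5 TPM in small intestine 2. Against the mean of the 6 tissues 14.4% of all genes were higher and 6.36% lower. Of 39 tested genes of apoptosis and survival, 15 were higher and 0 lower in colon, with a median of 0.37 beside 0 for all genes. Their summed level was 6285, 6881 and 7673 TPM in colon 1, 2 and 4 and at most 5362 TPM in any other library. The sum holds 2 members that passed against each tissue taken alone, Cdkn1a among them, so it is no separate support.

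Serpinb2, the intracellular serpin known as plasminogen activator inhibitor type 2, was among the most abundant of the 10 genes. It had 3673, 3539 and 4661 TPM in colon 1, 2 and 4, against 6.2, 165 and 1489 TPM as the lowest, median and highest elsewhere. The tissues with the next means were small intestine at 1359.7 ± 111 TPM (SD, n = 4) and skin at 941 ± 394 TPM (SD, n = 3), so every colon library was higher than any library of these. The difference was 4.31 (SE 0.23) against the mean and 1.56 against small intestine (limma adjusted p = 0.0234 against every tissue, not called with the replicate number as a block). Cyp4f18, a cytochrome P450 that hydroxylates leukotriene B4 in mouse myeloid cells, had 2701, 2581 and 2671 TPM in colon, against 666, 1534 and 1962 TPM elsewhere. Its difference was the smallest of the 10, at 0.90 (SE 0.10) against the mean and 0.27 against lung (limma adjusted p = 0.0348), and 23 of 36 alternative settings kept the call. Alox15, the 12/15-lipoxygenase of eosinophils, had 1694, 1749.7 and 2025 TPM in colon and up to 1852 TPM elsewhere, in bone marrow 1, so these overlapped. Alox5, the 5-lipoxygenase of leukotriene synthesis, had 305, 268 and 355 TPM in colon and at most 255 TPM elsewhere, with a difference of 0.71 from the mean (limma adjusted p = 3.62e-05). Of 19 tested eicosanoid synthesis genes, 10 were higher and 1 lower against the mean of the 6 tissues (median 0.48). The shares of all genes were 14.4% and 6.36%.

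**Figure D2:**
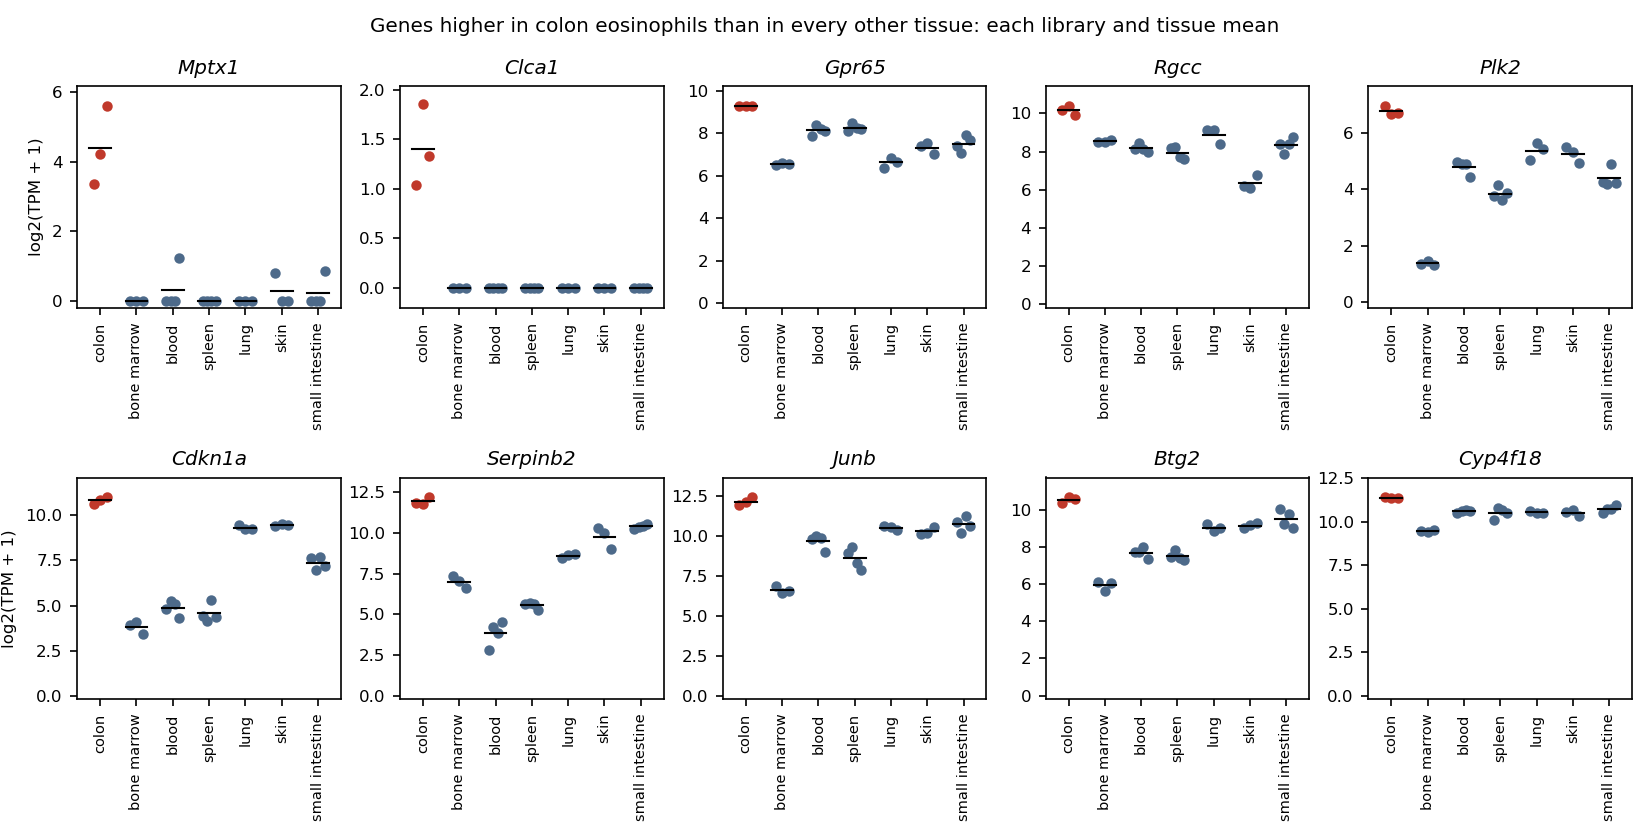
Level of the 10 genes called higher in colon eosinophils than in every other tissue, as log2(TPM + 1) on the y axis, by tissue on the x axis, with 1 point per library (colon in red) and a bar at the tissue mean. The 3 colon points lie above all 21 others in each panel, from Clca1, listed at 0 in all 21, to Cyp4f18, whose colon libraries had 2701, 2581 and 2671 TPM against a highest of 1962 TPM elsewhere.

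Immediate early genes, which code for AP-1 subunits, zinc-finger factors and short-lived feedback regulators and are switched on within minutes of stimulation, were mostly higher in colon. Of 43 tested members, 37 were higher and 0 lower against the mean of the 6 tissues, with a median of 1.97, beside 14.4% and 6.36% of all genes and a median of 0. Against small intestine 21 were higher and 1 lower (median 1.0), against skin 30 and 1 (1.42), and against lung 21 and 3 (0.32). The same list gave 39 higher and 0 lower against bone marrow, 35 and 2 against blood, and 36 and 2 against spleen. Their summed level was 18802, 21989 and 25416 TPM in colon 1, 2 and 4, against 1018, 8341 and 12706 TPM as the lowest, median and highest of the other libraries. The groups did not overlap, but the sum holds 8 members that passed against each tissue taken alone, so this is no separate support. Genes of this list are also known to rise while tissue is digested to single cells. How each tissue was dissociated is not given in the sources used here, and tissue and preparation cannot be told apart. Heat shock genes, another group known to respond to handling, were higher in colon for 13 of 19 members and lower for 0 against the mean of the 6 tissues (median 1.22, and 8 higher without colon 2). They gave 14 higher against bone marrow, 16 against blood, 18 against spleen and 17 against lung, with 0 lower in each, but 2 higher and 1 lower against small intestine and 1 higher and 11 lower against skin. Their summed level was 11059, 12881 and 8325 TPM in colon, against 1237, 2197 and 23349 TPM as the lowest, median and highest elsewhere. These genes moved with the immediate early genes against 4 of the 6 tissues, and their part in that result was not tested.

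Among AP-1 subunits, Jun had 455, 545 and 381 TPM in colon, against 0.84, 5.17 and 233 TPM as the lowest, median and highest elsewhere. Its difference was the largest on the higher side among genes that met the naming rule, 5.29 (SE 0.34) from the mean of the 6 tissues and 1.93 against small intestine (limma adjusted p = 6.06e-12 against the mean, 0.00192 against small intestine and 0.0799 against every tissue). Fos, its usual partner, had 1258, 1749 and 1890.3 TPM in colon and at most 905 TPM elsewhere, in small intestine 1. Fosb had 113, 114 and 232 TPM in colon and at most 82.1 TPM, in blood 1. All 3 subunits were thus higher in each colon library than in any other library. Zfp36, which codes for an RNA-binding protein that speeds decay of cytokine messages, had 1447, 1686 and 2171 TPM in colon and up to 1231 TPM in small intestine 3. Egr1, a zinc-finger factor of growth-factor and stress signalling, had 596, 762 and 909 TPM in colon but reached 788 TPM in small intestine 1, so colon and small intestine overlapped. Atf3, a stress-induced factor, had 214, 313 and 206 TPM in colon and a higher mean of 441 ± 221 TPM in small intestine (SD, n = 4). Ier2 had 452, 482 and 862 TPM in colon and up to 461 TPM in blood 2, and Ier3 361, 436 and 261 TPM in colon and up to 383 TPM in skin 4. The list was uneven: 17 of the 43 were higher in colon than in each of the 6 tissues by sign alone (924 genes, or 9.42%, of all tested), 8 passed the test against each tissue and 3 (Junb, Btg2 and Plk2) passed against every tissue.

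**Figure D3:**
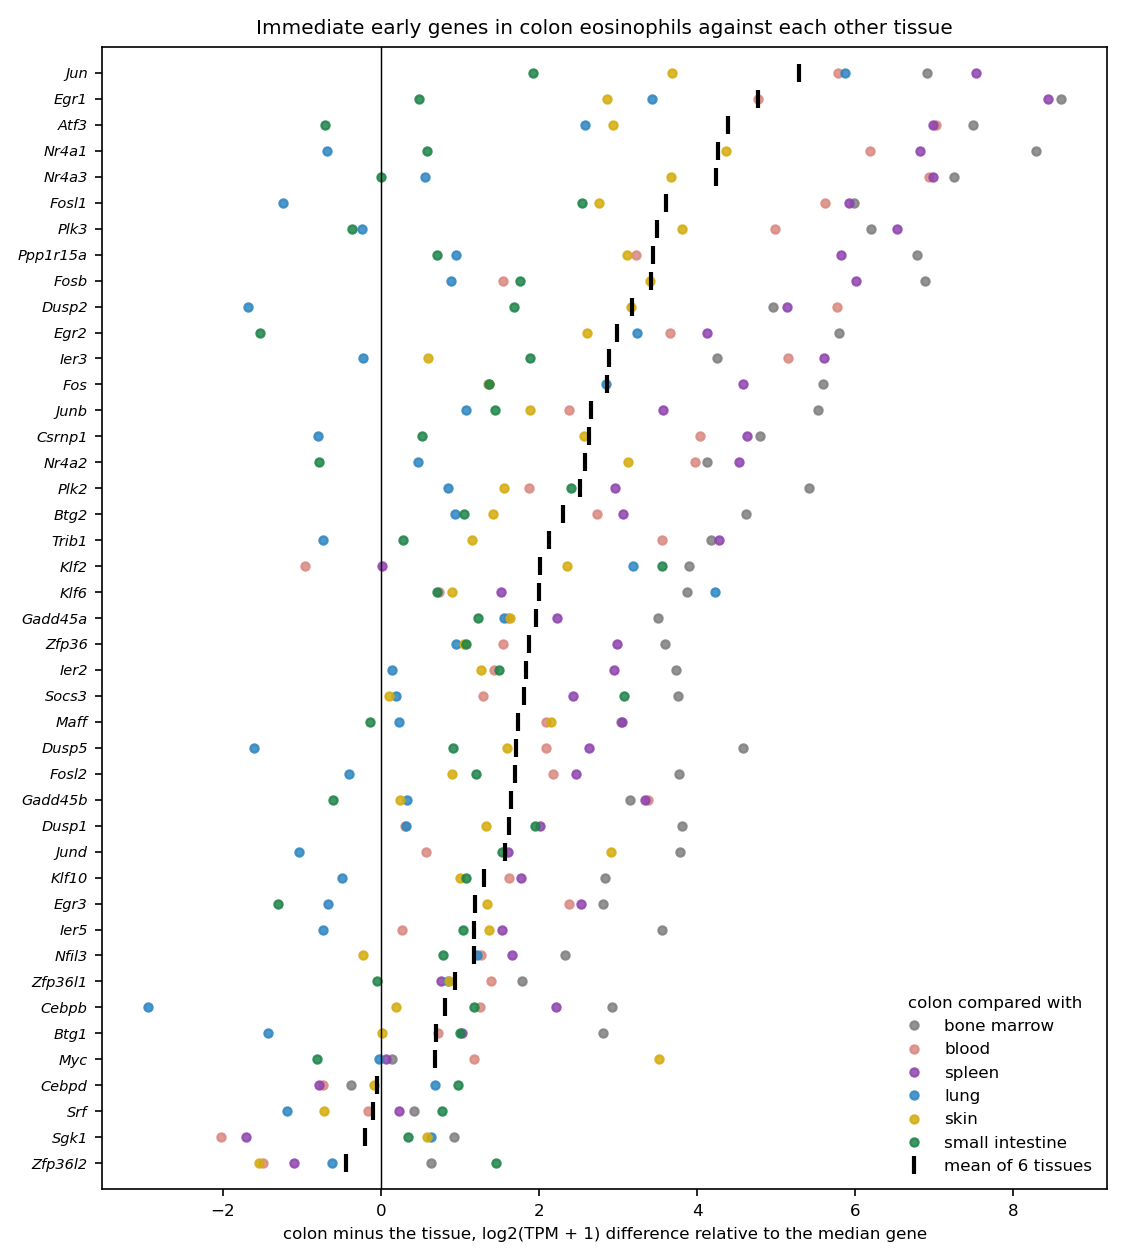
Difference of the 43 immediate early genes between colon and each other tissue (coloured points) and the mean of the 6 tissues (black bars), on the x axis as log2(TPM + 1) relative to the median gene, with 1 row per gene ordered by the black bar. Most points lie right of 0, with the black bar of Jun at 5.29, whereas the lung points of Cebpb, Dusp2, Dusp5 and Fosl1 and the small intestine points of Egr2 and Egr3 lie left of it.

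Feedback regulators and targets of NF-kappaB, the transcription factor of Toll-like receptor and tumour necrosis factor signalling, were also higher. Beside 14.4% and 6.36% of all genes, 26 of 32 tested members were higher, 0 lower, against the mean of the 6 tissues (median 1.59). Their summed level was 11695, 11153 and 13686 TPM in colon, against 633, 1143 and 9773 TPM elsewhere as lowest, median and highest. There was no overlap, but the sum holds 2 members that passed against each tissue taken alone, so this is no separate support. Tnfaip3, the ubiquitin-editing inhibitor A20, had 779, 836 and 1077 TPM in colon, against 8.5, 56.5 and 479 TPM elsewhere as lowest, median and highest. It was 3.59 above the mean and 1.46 above skin, the nearest tissue, and its limma adjusted p against every tissue was 0.215. Nfkbid, the nuclear inhibitor IkBNS, had 467, 404 and 518 TPM in colon and at most 343 TPM elsewhere. Nfkbiz, the nuclear inhibitor IkB-zeta, had 784, 818 and 866 TPM in colon and at most 537 TPM, in lung 1. Both were thus highest in the colon libraries, but Nfkbiz was only 0.16 above lung. Against single tissues the list was less one-sided, with 6 higher and 1 lower against small intestine, 11 and 5 against skin and 10 and 4 against lung. All genes gave 7.1% and 5.63% against small intestine, 9.33% and 8.9% against skin, and 31.9% and 6.32% against lung. The antiapoptotic Bcl2a1b had 834, 890.5 and 1554 TPM in colon and 886 ± 314 TPM in small intestine (SD, n = 4); the Bcl2a1 copies share sequence, so the split of reads among them is uncertain.

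Of 31 tested chemoattractant and mediator receptors, 1 (Gpr65) was called higher against every tissue and 3 against each tissue taken alone. Gpr65, a proton-sensing receptor that raises cyclic AMP at acid pH, had 617, 624 and 630.1 TPM in colon 1, 2 and 4, against 83.1, 186 and 356 TPM as the lowest, median and highest elsewhere. Spleen and blood came next, at 309 ± 33.4 and 285 ± 42.6 TPM (SD, n = 4 each), whereas small intestine had 186 ± 46.5 TPM (SD, n = 4). The difference was 1.79 (SE 0.14) from the mean and 1.04 from blood (limma adjusted p = 0.0142 against every tissue). P2ry10, a receptor for lysophospholipids, had 184, 127 and 202 TPM in colon and at most 110.1 TPM elsewhere, and P2rx1, an ATP-gated channel, had 207, 219.6 and 243 TPM in colon and at most 206 TPM, in blood 3. Both passed against each tissue taken alone. Pde4b, which breaks down cyclic AMP, had 367, 345 and 454 TPM in colon and at most 320.2 TPM, in skin 2. Against the mean of the 6 tissues 14 of the 31 receptors were higher and 2 lower (median 0.33, and 0.50 without colon 4), against skin 10 and 4, and against small intestine 12 and 6. For all genes, 14.4% were higher and 6.36% lower against the mean, 9.33% and 8.9% against skin, and 7.1% and 5.63% against small intestine. In addition, 14 of 32 genes of cyclic AMP and calcium responses were higher and 1 lower (median 0.56), against the mean of the 6 tissues.

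Nmur1, the neuromedin U receptor named in the title of the series, was listed at 0 in all 3 colon libraries. It reached 47.4 TPM in small intestine 1 and had a median of 0 over the 21 other libraries. Mrgpra2a and Mrgpra2b, receptors of the Mas-related family, were also at 0 in the 3 colon libraries, and Mrgpra2b reached 38.6 TPM in small intestine 1. Among 8 tested neuropeptide and neurotransmitter receptors, 2 were higher and 3 (Ramp1, Mrgpra2a and Mrgpra2b) lower in colon against the mean of the 6 tissues, and 1 of the 3 lower calls remained without colon 1.

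Mptx1 and Clca1, products of the intestinal mucosa, were found almost exclusively in the colon libraries, at low levels. Mptx1, a pentraxin of the intestinal mucosa whose reads may be shared with a related copy, had 9.29, 17.5 and 47.9 TPM in colon 1, 2 and 4. It was listed at 0 in 18 of the 21 other libraries and reached 1.36 TPM in blood 4 and 0.82 TPM in small intestine 4 (limma adjusted p = 7.44e-06 against every tissue). Clca1, a secreted goblet cell protein of mucus, had 1.05, 2.61 and 1.51 TPM in colon and was listed at 0 in all 21 other libraries (limma adjusted p = 0.0142). It was the only tested gene that reached 1 TPM in the 3 colon libraries and in no other, and Mptx1 reached 1 TPM in 1 other library, so both entered the test through colon and had to differ, and their p-values are no support beyond the values themselves.

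Some other genes of the gut epithelium were higher too. Of 40 listed epithelial markers, 11 were tested, Clca1 among them, and 29 were not analysed here. Besides Clca1, 5 were higher (Car1, Krt19, Epcam, Lgals4 and Fcgbp) and 1 lower (Cdh17) in colon against the mean of the 6 tissues, and 4 of the 5 passed against each tissue taken alone. Car1, the carbonic anhydrase of colon surface cells and of red cells, had 14.5, 6.28 and 15.4 TPM in colon and at most 3.72 TPM elsewhere, in spleen 4. Lgals4, a galectin of intestinal epithelium, had 17.3, 33.8 and 57.7 TPM in colon and up to 20.2 TPM in small intestine 3, and was not called against the mean without colon 4. Epcam, an adhesion protein of epithelial cells, had 3.51, 3.51 and 14.8 TPM in colon and up to 3.92 TPM in small intestine 3, and Krt19, an epithelial keratin, 3.18, 3.62 and 17.6 TPM in colon and up to 8.43 TPM in the same library. Colon 4 was thus the highest of the colon libraries for Mptx1, Lgals4, Epcam and Krt19. Fcgbp, a mucus protein of goblet cells, had 6.82, 4.27 and 1.25 TPM in colon and at most 2.59 TPM elsewhere. Muc3, a membrane mucin of enterocytes that also passed the filter through colon, had 8.17, 4.89 and 8.59 TPM in colon and up to 5.17 TPM in small intestine 1. Summed over the 11 markers, the level was 114, 128 and 194 TPM in colon, inside the range of 69.3, 119.8 and 316 TPM as lowest, median and highest of the other libraries, and none of the 11 was at 0 in every colon library. Small intestine libraries summed to 159.8 to 316 TPM, with Cdh17, an intestinal cadherin, at 58.4 ± 16.1 TPM (SD, n = 4), against 0.48, 0.15 and 0 TPM in colon. Car1, Krt19, Epcam, Lgals4 and Fcgbp were thus higher against the mean, as were Mptx1, Clca1 and Muc3, but Cdh17 was lower. Between the colon libraries Fcgbp did not follow Mptx1, since it was lowest in colon 4. The part of these markers in the results for Mptx1, Clca1 and Muc3 was not tested.

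**Figure D4:**
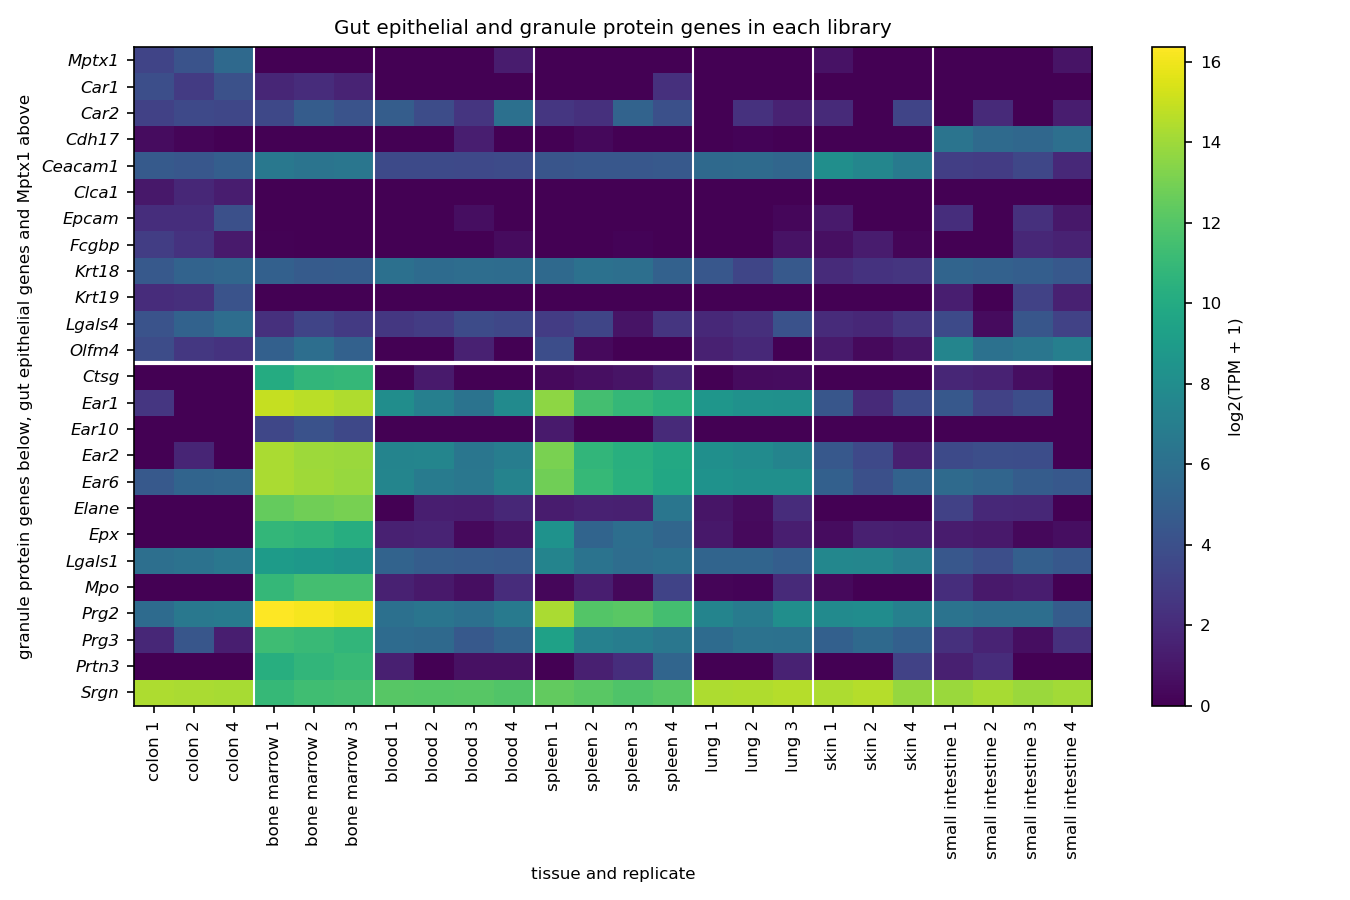
Level of Mptx1 and gut epithelial markers (upper rows) and of granule protein genes (lower rows) in each of the 24 libraries (columns, colon on the left), as log2(TPM + 1) by colour. Mptx1, Car1 and Clca1 are highest in the colon columns, with Mptx1 at 9.29, 17.5 and 47.9 TPM and Clca1 near the dark end of the scale. Prg2 and the Ear genes are bright in bone marrow and darker in colon, where Prg2 and Ear6 stay brighter than Clca1.

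The remaining genes that were higher against each tissue taken alone had varied roles, and 25 of the 53 were in none of the lists; those named here were chosen after their values were seen. Cks2, a small subunit of cyclin-dependent kinases, had 3335, 3537 and 2835 TPM in colon, against 272, 503 and 2374 TPM elsewhere as lowest, median and highest, with a difference of 2.23 from the mean. Mat2a, which makes S-adenosylmethionine, had 622, 647 and 570.3 TPM in colon and at most 384 TPM elsewhere, in skin 1. Hbegf, a membrane-bound ligand of the epidermal growth factor receptor, had 35.5, 39.6 and 42.5 TPM in colon and at most 22.1 TPM elsewhere. For each of these the colon libraries did not overlap with any other. Tubb2a, a beta-tubulin, had 78.2, 84.1 and 71.7 TPM in colon and at most 31.9 TPM elsewhere. Pfkl, the liver-type phosphofructokinase of glycolysis, had 63.2, 56.3 and 47.0 TPM in colon and at most 42.3 TPM, in skin 1. Cd24a, a surface glycoprotein of granulocytes and B cells, had 2274, 2758 and 2551 TPM in colon and at most 1956 TPM, in blood 4, and Adgre5, the adhesion receptor CD97, 629, 578 and 571 TPM and at most 519.5 TPM, in spleen 2. These 2 were abundant in all tissues and higher in colon by 0.93 and 1.35 against the mean of the 6. Ap1ar, a regulator of the clathrin adaptor complex of the same short name as AP-1, had 102, 11.5 and 12.5 TPM in colon 1, 2 and 4 and up to 18.4 TPM in small intestine 4. Colon 1 alone was high, and without it Ap1ar was not called against the mean of the 6 tissues (limma adjusted p = 0.143, against 0.00298 with it). Among the 53 genes 3 (Ap1ar, Mptx1 and Epcam) had an SD above 1 on the log2 scale between colon libraries. The median SD of the 53 was 0.24, against 0.353 over all genes tested. Choosing genes by small p-values from these same libraries favours a low SD, so this gap is no separate support.

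Few genes were lower in colon than in each other tissue. The 7 genes that passed against each tissue taken alone were Cetn2, Ube2q1, Cnpy2, Rab29, Rtp4, Ear2 and Ly6c2. Rab29, a small GTPase of the endolysosomal system, had 9.92, 9.94 and 16.5 TPM in colon, against 20.6, 39.4 and 80.6 TPM as the lowest, median and highest elsewhere, and came nearest to the threshold against every tissue (limma adjusted p = 0.0738). Ly6c2, the Ly6C antigen of monocytes and some other leukocytes, had 2.16, 0 and 0 TPM in colon 1, 2 and 4, against 3.99, 111 and 4039 TPM elsewhere (adjusted p = 0.0917 by limma). Cnpy2, an endoplasmic reticulum protein, had 11.2, 28.7 and 39.95 TPM in colon, against 31.4, 106 and 164 TPM elsewhere. For Rab29 and Ly6c2 all colon libraries lay below all others, whereas colon 4 overlapped with the lowest other library for Cnpy2. Cetn2, a centrin, had 63.6, 43.9 and 62.6 TPM in colon and at least 72.6 TPM elsewhere, and Ube2q1, a ubiquitin-conjugating enzyme, 8.24, 13.2 and 11.6 TPM and at least 16.6 TPM.

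Most granule protein genes, which code for the stored cationic proteins and proteases of granulocytes, were lower in colon. Of 13 tested members, 10 were lower and 1 (Srgn) higher against the mean of the 6 tissues, with a median of -3.04, and 6 (Epx, Ear10, Ctsg, Mpo, Elane and Prtn3) were listed at 0 in the 3 colon libraries. Prg2, major basic protein, had 50.7, 94.7 and 104 TPM in colon, against 72327 ± 12110.1 TPM in bone marrow (SD, n = 3) and 55.1 ± 20.2 TPM in small intestine (SD, n = 4). Ear1 had 5.01, 0 and 0 TPM in colon and Ear2 0, 2.18 and 0 TPM, against medians of 259.8 and 169 TPM over the other libraries; these eosinophil-associated ribonucleases are near-identical copies, and the split of reads among them is uncertain. Ear6 was still found, at 22.4, 38.2 and 40.4 TPM in colon and 34.6 ± 13.1 TPM in small intestine (SD, n = 4). Colon and small intestine thus overlapped for Prg2 and Ear6. Against bone marrow 12 of the 13 were lower in colon, against spleen 7, against blood, lung and skin 4 each, and against small intestine 1. Srgn, the proteoglycan serglycin that packs granules, had 20842, 20059.5 and 19305 TPM in colon, against 2000.3, 5573 and 23973 TPM elsewhere.

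More interferon-induced genes were lower than higher. Of 38 tested members of the type I interferon response, 11 were lower and 4 higher against the mean of the 6 tissues (median -0.38, and -0.58 without colon 1), and 10 were below each of the 6 tissues by sign (552 genes, or 5.63%, of all tested). The 11 lower calls became 7 without colon 2 and 5 without colon 4. Rtp4, an interferon-induced chaperone of receptors, had 0.59, 7.02 and 9.24 TPM in colon, against 13.9, 28.5 and 93.4 TPM as the lowest, median and highest elsewhere, so all colon libraries lay below all others. Rsad2, the antiviral protein viperin, had 1.16, 14.5 and 3.21 TPM in colon and a median of 17.5 TPM elsewhere, with overlap, and was not called without colon 1. Ifi27l2a had 63.6, 61.6 and 43.4 TPM in colon and a median of 181 TPM elsewhere. Not all members moved this way: Isg15, a ubiquitin-like modifier, had 193, 168 and 202 TPM in colon, 2.0 above the mean of the 6 (limma adjusted p = 7.98e-05) but -0.92 relative to lung. Against lung 14 members were lower and 0 higher in colon (median -1.27).

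Ribosomal protein genes were lower against 4 tissues and near the level of the other 2. Of 83 members, 66 were lower and 1 higher against the mean of the 6 tissues (median -0.64), 62 lower against lung, 62 against blood, 75 against bone marrow and 72 against spleen, but 3 lower and 4 higher against skin and 6 lower and 0 higher against small intestine. Their summed level was 97905, 92876 and 89724 TPM in colon, against 85901, 157651 and 198954 TPM elsewhere as lowest, median and highest. Rpl13a, for example, had 1154, 1085 and 1243 TPM in colon, 2786 ± 396 TPM in lung (SD, n = 3) and 1237 ± 124 TPM in small intestine (SD, n = 4). Since TPM share a fixed total over all genes, deposited or not, this group's level bears on all others. With these genes left out and the rest rescaled, 2 genes (Mptx1 and Serpinb2) were called against every tissue. Genes of oxidative phosphorylation had 19 of 74 members lower and 3 higher (median -0.28), with 12 lower without colon 2 and 29 and 34 lower under median-ratio scaling and quantile normalization.

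Other differences from the mean of the 6 tissues were shared with 1 or 2 of them. Markers of activated intestinal eosinophils were higher in colon against the mean for 22 of 27 and lower for 0 (median 2.11), but 4 were higher and 9 lower against small intestine (median -0.26). Cxcl2, a neutrophil-attracting chemokine, had 5089, 5637 and 7323 TPM in colon, 8821 ± 2692 TPM in small intestine (SD, n = 4) and at most 28.4 TPM as a mean in bone marrow, blood or spleen. Il1b, which codes for interleukin 1 beta, had 1587, 1785 and 2038 TPM in colon and 4774 ± 1035 TPM in small intestine (SD, n = 4). Tgm2, a transglutaminase, had 3716, 2867 and 3062 TPM in colon and 3898 ± 451 TPM in small intestine (SD, n = 4). Small intestine thus had the higher mean for all 3. Retnla, a resistin-like secreted protein of type 2 responses, was instead shared with skin, with 562, 749.5 and 1280.2 TPM in colon, 2679 ± 344 TPM in skin (SD, n = 3) and a median of 7.67 TPM over the other libraries. Acod1, which makes itaconate, was shared with lung and small intestine, with 814, 568 and 773 TPM in colon, 1069.8 ± 179 TPM in lung (SD, n = 3) and 438 ± 94.6 TPM in small intestine (SD, n = 4). Socs2, a feedback inhibitor of cytokine receptors, had 208, 219 and 301 TPM in colon, 160.1 ± 70.9 TPM in small intestine (SD, n = 4) and 18.8 ± 1.11 TPM in lung (SD, n = 3), the next tissue.

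Some programmes were common to both parts of the gut and others were not. Unfolded protein and amino acid response genes were higher in colon against the mean for 21 of 37 and lower for 0 (median 0.88), but 2 were higher and 2 lower against small intestine. Hspa5, the endoplasmic reticulum chaperone BiP, had 1929, 1862 and 1883 TPM in colon and 2069.9 ± 282 TPM in small intestine (SD, n = 4), against a median of 216 TPM over all other libraries. Genes of sterol synthesis were higher for 10 of 26 against the mean (median 0.74) and lower for 12, higher for 0, against small intestine (median -1.24). Insig1, a sterol-regulated brake on this pathway, had 31.0, 30.2 and 24.6 TPM in colon, 124 ± 33.1 TPM in small intestine (SD, n = 4) and at most 4.18 TPM as a mean in any other tissue. The sterol list summed to 799, 774 and 621 TPM in colon, which overlapped with lung at 622.7 to 672.8 TPM and lay below small intestine at 1817 to 2742 TPM. Hypoxia and glycolysis genes differed from small intestine too, with 18 of 39 higher and 1 lower against the mean (median 0.77), 16 higher and 1 lower against small intestine, and a summed level of 11960.4, 12649.6 and 11247 TPM in colon, above the 10808 TPM of the highest other library. Gapdh, a glycolytic enzyme, had 3749.7, 4561 and 3623 TPM in colon and up to 3705 TPM in small intestine 2, and Tpi1, triosephosphate isomerase, 385, 374 and 300.0 TPM and up to 312 TPM in skin 1. Each overlapped with 1 of the other tissues, and Vegfa, a hypoxia-induced growth factor, had 13.6, 9.76 and 14.6 TPM in colon, well under the 79.4 ± 14.1 TPM of lung (SD, n = 3).

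**Figure D5:**
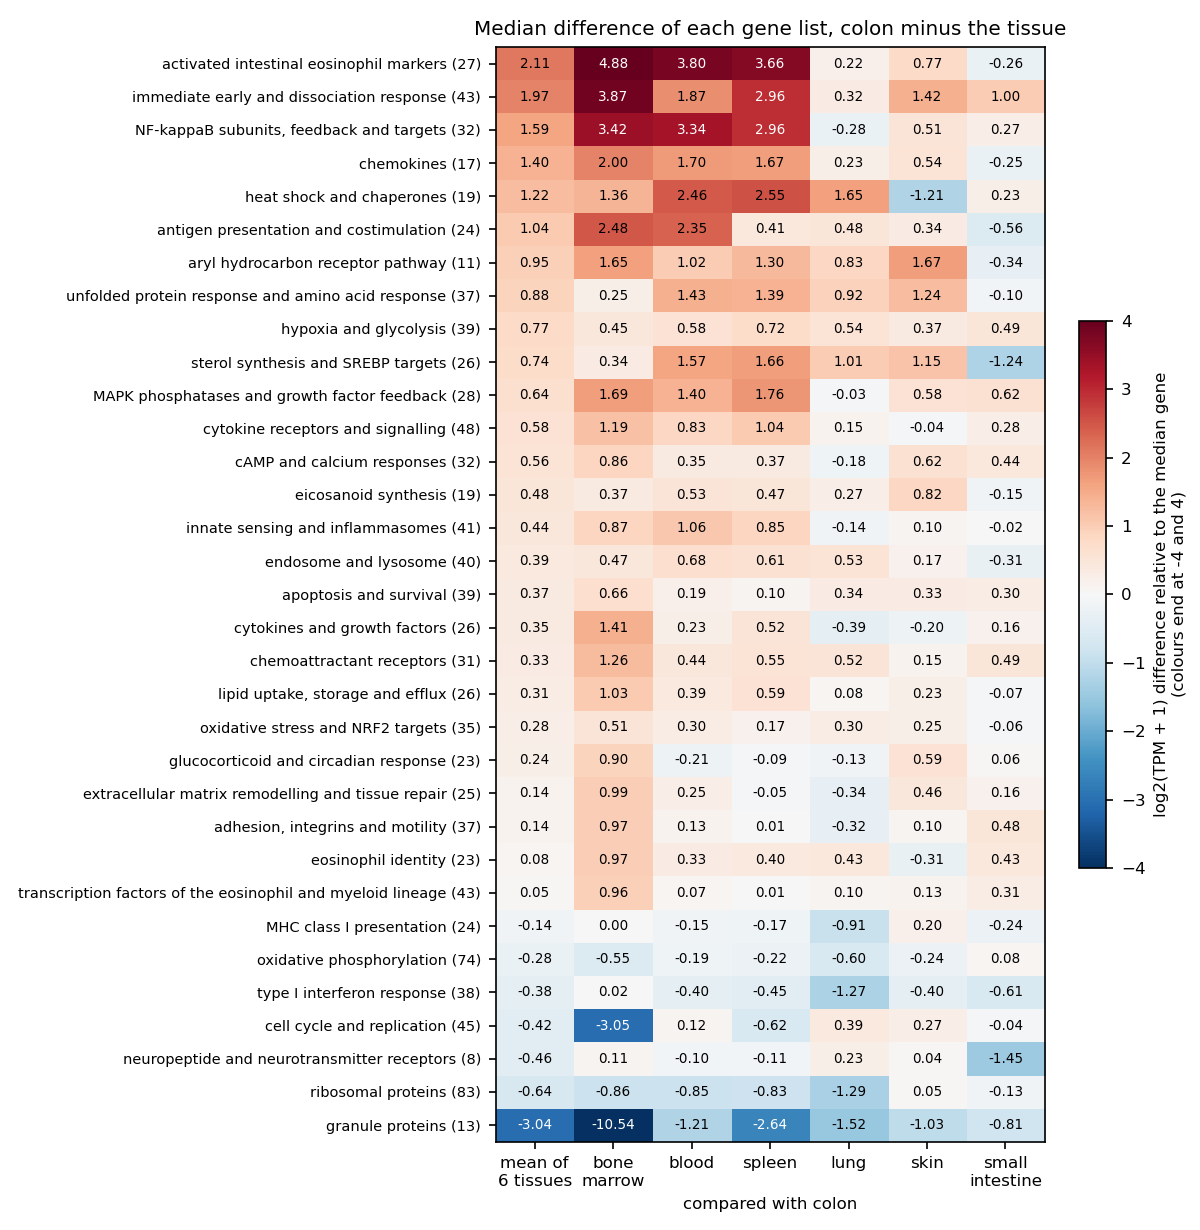
Median difference of each gene list between colon and the mean of the 6 tissues or each tissue (columns), as log2(TPM + 1) relative to the median gene, with the number of tested members after each name. Activated intestinal eosinophil markers (2.11) and immediate early genes (1.97) head the first column and granule proteins (-3.04) end it, and sterol genes stand at 0.74 against the mean and at -1.24 against small intestine.

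Many genes of cytokine signalling were higher as well, where 14.4% of all genes were higher and 6.36% lower against the mean. Of 48 cytokine receptors and signalling genes, 25 were higher and 2 lower against the mean (median 0.58), of 17 chemokines 9 and 1 (1.40, and 0.81 without colon 1), and of 26 cytokines and growth factors 11 and 2 (0.35). Cish, a STAT5-induced inhibitor, had 143, 144 and 187 TPM in colon and 189 ± 80.6 TPM in skin (SD, n = 3), with a median of 31.0 TPM elsewhere. Il4ra, the interleukin 4 receptor, had 33.9, 41.5 and 46.6 TPM in colon and at most 29.3 TPM elsewhere, in skin 4, a difference of 1.65 (limma adjusted p = 3.59e-05 against the mean). Csf2rb2, a receptor subunit of the interleukin 3 family that is nearly identical to Csf2rb, had 277, 258 and 221 TPM in colon and 371 ± 68.4 TPM in skin (SD, n = 3). Against small intestine 12 of the 48 were higher and 7 lower in colon, and against skin 7 and 10. Genes of the aryl hydrocarbon receptor pathway, which senses dietary and microbial ligands in the gut, were higher for 6 of 11 and lower for 0 (median 0.95), among them its feedback repressor Ahrr at 5.65, 7.77 and 3.58 TPM in colon and 16.3 ± 4.39 TPM in small intestine (SD, n = 4). Antigen presentation genes had 9 of 24 higher and 1 lower (median 1.04), with Cd80, a costimulatory ligand, at 144, 142 and 182 TPM in colon and 222 ± 29.1 TPM in small intestine (SD, n = 4). Hes1, a target of Notch signalling, had 53.5, 61.1 and 52.8 TPM in colon and at most 51.7 TPM elsewhere, in small intestine 1, 3.50 above the mean (limma adjusted p = 1.11e-06). Counts of 3 or fewer lower members in the lists of this and the preceding paragraphs ranged between 0 and 3 when each colon library was left out or another scaling was used.

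Markers of other cell types differed by cell type in the colon libraries. Their counts stand beside 14.4% higher and 6.36% lower over all genes against the mean of the 6 tissues. Of 25 tested neutrophil markers, 11 were listed at 0 in all 3 colon libraries, among them S100a8, Camp and Ngp, and 4 were higher and 11 lower against the mean of the 6 tissues (7 lower without colon 1). Their summed level, which also holds genes that eosinophils express, was 20514, 18692 and 18440.2 TPM in colon, against 4942, 60859.7 and 83604 TPM as the lowest, median and highest elsewhere. Red cell and platelet markers summed to 174, 414 and 311 TPM in colon, against a median of 14800.2 TPM over the other libraries. Stromal and endothelial markers summed to 442, 462 and 509 TPM in colon, against 102, 175 and 1038 TPM elsewhere. In that list 2 of 8 members (Gsn and Pecam1, both also known from leukocytes) were higher and 1 lower against the mean. B and plasma cell markers summed to 240.3, 233 and 277 TPM, against 61.0, 110.2 and 1273 TPM elsewhere, with 2 of 6 (Xbp1 and Bank1) higher and 1 lower, of which Bank1 was not called without colon 2, without colon 4 or under either other scaling. Dendritic cell markers summed to 577, 365 and 281 TPM, against 101, 323 and 1046 TPM elsewhere, with 1 of 12 (Itgax, an integrin subunit) higher and 1 lower. Macrophage and monocyte markers summed to 1893, 1891 and 2159.9 TPM, against 708, 2043 and 7389 TPM elsewhere, with 6 of 18 higher and 1 lower. Of 9 tested mast cell and basophil markers, Cpa3, Mcpt8, Fcer1a and Ms4a2 were at 0 in colon, Alox5 was higher and Kit lower (Kit not called without colon 2 or without colon 4), and the list summed to 729, 737 and 829.8 TPM in colon, against 396, 659 and 949 TPM elsewhere. Markers of T, natural killer and innate lymphoid cells summed to 41.2, 36.7 and 64.4 TPM over 5 tested members, against a median of 53.2 TPM. These were 5 of 36 listed markers, and only 8 of 36 stromal and 6 of 26 B and plasma cell markers were tested. Sums over so few members do not measure the amount of such cells. The part of all the cell types named here in the results above was not tested.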

How the data were processed

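Total eosinophils flow-sorted from 7 tissues were profiled in 24 libraries by Smart-seq2, sequenced as 150-base pairs per the labels. The TPM values were made and deposited by the authors; cutadapt 2.10, STAR 2.7.5c, RSEM 1.3.3 and build mm10 come from the submitters' processing notes, and the annotation is not given in the sources used here. The table holds 9844 genes, each above 0 in at least 3 libraries; the sorted receptor-positive populations and the single-cell sample were not analysed here. TPM keep no depth, so depth is unknown and no counting interval can be given; splitting of reads among near-identical genes cannot be undone, and a value of 0 means only that the gene is listed at 0.

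From the deposited TPM, log2(TPM + 1) was fitted in R 4.3.3 with limma 3.58.1 (trend and Benjamini-Hochberg adjustment), with tissue as the only term, over 9806 genes with at least 1 TPM in at least 3 libraries; the other 38 genes were not tested. Colon was contrasted with the average over the 6 other tissues, each weighted equally, and with each tissue alone. For the call against every tissue the largest of the 6 pairwise p-values was adjusted over all genes, with an adjusted p under 0.05 as threshold. In simulated data with 9806 genes, the 6 other tissues shared one level, and changed genes were drawn from the more abundant ones. Against the mean, 58% of true log2 differences of 1, 100% of 2, 56% of -1 and 98% of -2 were recovered. Against every tissue these were 16%, 86%, 30% and 76%. Of unchanged genes 0.0521% and 0% were called. No simulated gene differed from only some of the tissues, so the 0% does not measure false calls of such genes against every tissue.

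Members and the 43 gene lists were chosen with earlier results of these data known. Named genes were up to 15 per direction among those called against every tissue with a mean of at least 10 TPM. These were ranked by their smallest difference from any single tissue, before the median is taken off. Up to 5 more per direction had the largest difference from the mean among called genes with a mean of at least 10 TPM. Up to 4 were named per list. The 60 genes that passed against each tissue alone were added after their values were seen. So were Nmur1, Atf3, Ier2, Ier3, Rsad2, Ifi27l2a, Tpi1, Gapdh, Vegfa, Cish, Rpl13a and Bcl2l11. Alternatives were the pseudocount, the filter on low values, the scaling, the variance model, fewer tissues in the fit, the replicate number as a block and leaving out each library. Promoter windows came from RefSeq (GRCm38.p6) and gene positions from GENCODE M21.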

Additional observations from a re-analysis of the deposited data

Results flagged for a closer look

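Among 56 groups of 4 libraries of 20 named genes, 7 held a library far from the other 3. Chance flags about 1 in 20 such groups if their values are normally distributed. A group with only 1 library above 0 is always flagged, as were both Mptx1 groups, so that rate does not cover it. Mptx1 had 1.36 TPM in blood 4 and 0.82 TPM in small intestine 4 and was listed at 0 in the other libraries of both tissues. Plk2 had 20.61 TPM in blood 4, against 28.6 to 30.33 TPM in the other blood libraries, and 28.71 TPM in small intestine 3, against 17.16 to 18.14 TPM in the other small intestine libraries. Socs2 had 265.94 TPM in small intestine 4, against 115.72 to 132.23 TPM in the others. Egr1 had 1.55 TPM in blood 4, against 40.38 to 62.02 TPM in the other blood libraries. Hbb-bs, a haemoglobin chain, had 13.31 TPM in spleen 2, against 6052.13 to 16252.6 TPM in the other spleen libraries. The colon group, with 3 libraries, could not be tested in this way.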

How the results depend on the processing

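Over 37 alternatives, 201 named genes called against the mean of the 6 tissues gave 7426 comparisons, of which 7339 kept their direction and their side of the threshold, 87 lost the call (23 genes) and 0 turned round. Against every tissue the 10 higher and 0 lower genes became 53 and 7 with each of the 6 adjusted p-values under 0.05, 4 higher with median-ratio scaling, 2 higher with ribosomal protein genes left out and the rest rescaled, and 1 lower with a pseudocount of 0.1 (Ly6c2), with array weights (Ly6c2), and without the lung libraries (Fam111a, an alternative chosen after seeing the data). Against lung, median-ratio scaling gave 1774 higher and 1338 lower and quantile normalization 1263 and 1295. Quantile normalization gave 960 lower against the mean and 1771 lower against blood. With only colon and skin in the fit, 536 were higher and 495 lower. Apart from the scalings, which act through the library scale, the cause was not tested.

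Leaving out each library in turn gave 998 to 1458 higher and 383 to 649 lower genes against the mean, and 1 to 11 higher and 0 to 1 lower against every tissue. The ranges were 1580 to 1931 and 1260 to 1667 against bone marrow, 1625 to 2012 and 952 to 1236 against blood, 1322 to 1626 and 1080 to 1458 against spleen, 2645 to 3223 and 496 to 652 against lung, 725 to 956 and 658 to 934 against skin, and 520 to 740 and 425 to 594 against small intestine. The lower genes against the mean numbered 383 without colon 1 and 401 without colon 2. Ly6c2 was called lower against every tissue without spleen 1, skin 2 or skin 4.

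Deviations of same-numbered libraries from their tissue means correlated at -0.039 to 0.0428 over 16 pairs, none above 0.1. Those of other pairs correlated at -0.0669 to 0.0541. Noise of single libraries can hide a shared animal in this measure, so it cannot tell whether replicate numbers pair the samples. With the replicate number as a block, 1366 genes were higher and 579 lower against the mean, and 9 were higher and 1 (Rtp4) lower against every tissue.

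With 3 colon libraries and unknown depth, genes near 1 TPM are the least certain, a p that misses the threshold does not show equal levels, and tissue and the handling of each tissue cannot be told apart.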

Other observations

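Cell cycle genes differed mainly between colon and bone marrow: 39 of 45 were lower and 1 higher in colon than in bone marrow (median -3.05), while 3 were higher and 7 lower against the mean of the 6 tissues (4 lower without colon 1, 3 without colon 4). MHC class I genes had 6 of 24 members higher and 2 lower against the mean (median -0.14, and -0.21 without colon 1; 4 and 5 lower under median-ratio scaling and quantile normalization). Genes of the endosome and lysosome were higher for 16 of 40 and lower for 1 against the mean (median 0.39, and 0.25 without colon 2; 4 lower under median-ratio scaling and under quantile normalization), but 4 were higher and 11 lower in colon than in small intestine. Genes of lipid uptake, storage and efflux were higher for 11 of 26 and lower for 0 against the mean (median 0.31). Over all genes 14.4% were higher and 6.36% lower against the mean.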
